A study of Homo sapiens with 16 samples.

Results

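ATF4, ATF5, CHOP and GADD34 are the 4 stress-induced proteins followed here through ribosome profiling of HEK293T cells, a human embryonic kidney line made to express the large T antigen of SV40. CHOP is encoded by DDIT3 and GADD34 by PPP1R15A. Their transcripts were taken by identifier from the 21520 transcripts with a coding sequence in the Ribo-Seq counts, as uc003axz.3 (ATF4), uc002prd.3 (ATF5), uc021qzk.1 (DDIT3) and uc002pky.4 (PPP1R15A). In mRNA-Seq, ATF4, ATF5 and PPP1R15A were found under an earlier version of the same identifier and with the same counted length of 332, 263 and 655 codons. DDIT3, counted over 173 codons in Ribo-Seq, had no row under its identifier in the mRNA-Seq counts used here, so its mRNA level and translational efficiency were not analysed. Cells were left untreated or were exposed for 1 hr to 1 µg/ml tunicamycin (Tm), which blocks N-linked glycosylation, to Tm with 200 nM of the small molecule ISRIB, or to 200 nM ISRIB without Tm. The 4 treatments had biological replicates a and b, with 1 lysate each, and a lysate gave 1 library of ribosome-protected fragments (RPFs) and 1 of mRNA, 16 libraries in all. All of them came from the same cell line, and the labels give no genetic difference between groups.

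When unfolded proteins accumulate in the endoplasmic reticulum, the kinase PERK phosphorylates the initiation factor eIF2 on its alpha subunit, and phosphorylated eIF2 inhibits eIF2B, the exchange factor that reloads eIF2 with GTP. Most mRNAs are then initiated less often, while a few whose 5′ UTR holds short open reading frames (uORFs) are initiated more often at the main coding sequence. ATF4 and ATF5 are bZIP transcription factors of this integrated stress response, CHOP is a bZIP factor linked to cell death after lasting stress, and GADD34 brings protein phosphatase 1 to eIF2 and so closes the loop. ISRIB is known to make cells insensitive to eIF2 phosphorylation.

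The arrangement of upstream AUGs in the 4 mRNAs is shown first, since it is what sets these mRNAs apart as a class in textbooks. Transcripts were matched to the GENCODE annotation on GRCh38 by symbol and by coding length, each counted length being 20 codons shorter than the annotated coding sequence with its stop. The gene of ATF4 lies on the plus strand of chromosome 22 (start 39519695, end 39522685, transcript ENST00000396680.2), that of ATF5 on the plus strand of chromosome 19 (start 49928702, end 49933935, transcript ENST00000423777.6), that of PPP1R15A on the plus strand of chromosome 19 (start 48872392, end 48876057, transcript ENST00000200453.5) and that of DDIT3 on the minus strand of chromosome 12 (start 57516588, end 57521737, transcript ENST00000551116.5). In its shortest annotated form with the counted coding sequence, the ATF4 5′ UTR was 280 nt long and held 3 upstream AUGs, of which the last opened a frame of 59 codons that ran past the ATF4 start in another frame. ATF5 had the same order in a 5′ UTR of 377 nt, with a frame of 3 codons followed by one of 59 codons that overlapped the coding sequence. The 4 upstream AUGs of DDIT3 and the 2 of PPP1R15A opened frames that all ended before the coding sequence, in 5′ UTRs of 268 and 269 nt. For DDIT3 this holds for the form whose coding sequence of 192 residues matched the counted length, which is not a principal form of the annotation. Of its 3 principal forms, which encode 169 residues, 2 have an upstream frame of 73 codons that overlaps the coding sequence, and 1 of these 2 also has an upstream AUG in frame with it, so the difference from ATF4 and ATF5 rests on the form chosen. Among 18581 annotated genes, 51.4% had at least 1 upstream AUG, 30.5% had at least 2 and 17.0% had an overlapping upstream frame. Other annotated forms differ, and a 5′ UTR of ATF4 with 882 nt held 7 upstream AUGs.

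The stretches around these AUGs are given because the bases next to an AUG bear on how often a scanning ribosome uses it. Each runs 5′ to 3′ from the annotated transcript as DNA, with the start codon in capitals.
ATF4 upstream AUG 1: cgcccacagATGtagttttctctg
ATF4 upstream AUG 2: acggccaccATGgcgtattagggg
ATF4 upstream AUG 3: gcttaagccATGgcgcttctcacg
ATF4 CDS start: caccgcaacATGaccgaaatgagc
ATF5 upstream AUG 1: gccccggccATGgctctgtagcct
ATF5 upstream AUG 2: gctgcagccATGgagtcttccact
DDIT3 upstream AUG 1: gagcgtatcATGttaaagatgagc
PPP1R15A upstream AUG 2: gagggtgagATGaacgcgctggcc
The first ATF4 frame is an AUG followed at once by a stop codon, and both short frames of ATF4 and ATF5 close within the stretch shown. Of the 11 upstream AUGs of the 4 mRNAs in these forms, 4 had a purine at the third base before the AUG and a G directly after it, and all 4 of these were in ATF4 or ATF5. Over the 30025 upstream AUGs of the annotation the share with both bases was 16.3%, in principal forms not chosen for a short 5′ UTR as those of the members were. These letters describe the annotated transcripts, and footprints within 5′ UTRs are not in the counts used here.

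**Figure D1:**
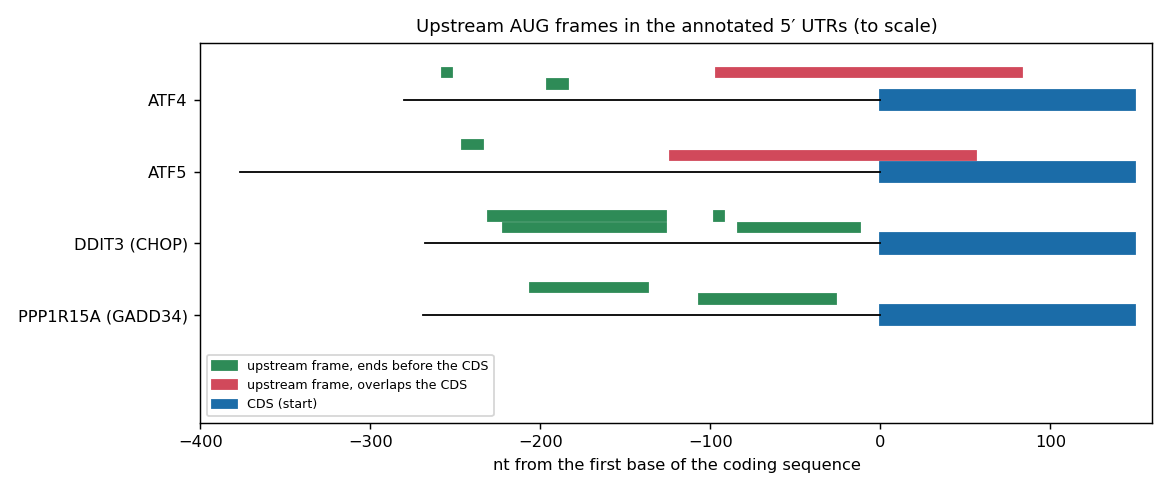
The plot of upstream AUG frames draws each annotated 5′ UTR as a line and the first 150 nt of the coding sequence as a blue box, with the distance in nt from the first base of the coding sequence on the x axis. Red frames, the last ones of ATF4 (97 nt before the coding sequence) and ATF5 (124 nt before it), overlap the coding sequence, and the green frames end before it.

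Library totals ranged from 3141634 to 11998181 RPF counts and from 26992075 to 77264087 mRNA counts, with the Tm libraries the shallowest in Ribo-Seq. Levels below are CPM, counts scaled to a library of 1000000 counts on the transcripts tested and adjusted by TMM, and levels of different genes are set side by side only per kilobase of counted coding sequence (RPKM). A transcript was called changed at a false discovery rate (FDR, the Benjamini-Hochberg adjusted p of edgeR's quasi-likelihood test) under 0.1. Counts are shares of a library, so a change in the total number of ribosomes on mRNA does not appear in them, and in bulk lysates a change in part of the cells and a smaller one in all of them cannot be told apart. Within mRNA-Seq, replicates differed most in ISRIB (chi-square of 12.2 per degree of freedom over transcripts), followed by Tm + ISRIB (5.48), untreated (3.28) and Tm (2.15). Within Ribo-Seq they differed most in untreated cells (5.34, against 1.64 to 2.17 in the other treatments). This statistic also grows with depth. Tm + ISRIB had the deepest mRNA-Seq libraries and untreated cells the deepest Ribo-Seq libraries, so these orders are not of replicate spread alone. Of 9 markers chosen for HEK293T, NES alone could be named, at 3.23 to 4.73 CPM in mRNA-Seq, and none of the leukocyte or fibroblast markers could be named.

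ATF4, the main transcription factor of the response, carried the most footprints of the 4, also per length. Its RPF level was 80.7 and 60.8 CPM in untreated replicates a and b, 449 and 457 CPM in Tm, 53.0 and 65.4 CPM in Tm + ISRIB and 44.7 and 42.9 CPM in ISRIB. Both Tm libraries lay far above the other 6, untreated and Tm + ISRIB overlapped, and both ISRIB libraries lay below all others. In raw counts these levels rest on 1958 and 1419 footprints in Tm and on 199 to 689 in the other libraries.

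The ATF4 RPF level rose 6.46-fold in Tm (log2 fold change 2.69, SE 0.10, adjusted p = 3.9e-18, edgeR) and was 7.63-fold lower in Tm + ISRIB than in Tm (95% interval 6.57 to 8.87, adjusted p = 1.6e-18, edgeR). In order, the 4 levels ran from Tm to untreated, Tm + ISRIB and ISRIB. Of the neighbours in that order, untreated and Tm + ISRIB did not differ by the test (log2 fold change -0.24, 95% interval -0.47 to -0.01, adjusted p = 0.34, edgeR), and Tm + ISRIB and ISRIB just missed the threshold (0.44, 95% interval 0.18 to 0.70, adjusted p = 0.11, edgeR). The last difference passed under 7 of 16 alternative settings, among them total counts as the only scaling and a fit of the compared treatments only, with adjusted p from 0.0078 to 0.64 over all 16. The former passed without untreated replicate b (-0.44, adjusted p = 0.042, edgeR, in a range of 0.042 to 0.92 over 16 alternatives).

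ISRIB in the absence of Tm was accompanied by fewer ATF4 footprints than in untreated cells. The RPF level fell by 0.68 on the log2 scale (SE 0.12, 95% interval -0.93 to -0.44, adjusted p = 0.038, edgeR), a 1.6-fold lower level. ATF4 was the only one of 11170 transcripts called lower in this comparison (0.00895% of them, with 0.0245% called in either direction in the fit of Ribo-Seq alone), and 1 transcript without a symbol, uc001uzy.1, was called higher. The difference held in direction under every alternative, from -0.88 to -0.48. It was -0.48 without untreated replicate a, -0.71 without ISRIB replicate a and -0.65 without ISRIB replicate b, and was called in none of these fits. Each of them leaves a lone replicate in a compared treatment, so a lost call there does not by itself mark a smaller change. The other 3 members had higher estimates in ISRIB, none of them called: 0.48 for ATF5 (95% interval -0.41 to 1.36), 0.35 for DDIT3 (-0.37 to 1.08) and 0.28 for PPP1R15A (-0.25 to 0.80).

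ATF5, a close relative of ATF4, was measured on far fewer footprints. Its raw RPF counts were 12 and 15 in untreated cells, 45 and 33 in Tm, 12 and 16 in Tm + ISRIB and 10 in each ISRIB library. In level this was 1.48 and 1.32 CPM in untreated cells, 10.3 and 10.6 CPM in Tm, 2.03 and 2.46 CPM in Tm + ISRIB, and 2.25 and 1.71 CPM in ISRIB. The Tm libraries stood apart from the other 6, which lay close to each other, with Tm + ISRIB and ISRIB overlapping.

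The ATF5 RPF level rose 7.43-fold in Tm (95% interval 4.70 to 11.7, adjusted p = 2.2e-07, edgeR), the largest rise by fold of the 11170 transcripts, and was 4.61-fold lower in Tm + ISRIB than in Tm (2.92 to 7.28, adjusted p = 1.8e-05, edgeR). Its estimate in Tm + ISRIB was above that in untreated cells without passing the test (log2 fold change 0.69, 95% interval -0.13 to 1.5, adjusted p = 0.48, edgeR). Whether ATF5 and ATF4 rose by different folds was not tested.

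DDIT3, which encodes CHOP, had an RPF level of 2.14 and 2.64 CPM in untreated cells, 9.73 and 9.01 CPM in Tm, 3.27 and 1.92 CPM in Tm + ISRIB, and 3.25 and 2.97 CPM in ISRIB. Both Tm libraries were well above the other 6, among which Tm + ISRIB overlapped both untreated and ISRIB. The raw counts were 44 and 29 in Tm and 13 to 31 elsewhere. In the fit of Ribo-Seq alone, over 12242 transcripts, its level rose 3.87-fold in Tm (log2 fold change 1.95, SE 0.30, adjusted p = 4.8e-05, edgeR) and was 3.65-fold lower in Tm + ISRIB than in Tm (95% interval 2.31 to 5.77, adjusted p = 2.1e-04, edgeR). With no mRNA value in the counts used here, a change in DDIT3 mRNA and a change in its translation cannot be told apart from them. The paper, from its own mRNA-Seq values, reports that it detected no significant rise of CHOP mRNA in Tm.

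PPP1R15A, which encodes the phosphatase subunit GADD34, had the smallest fold of the 4 in Tm. Its RPF level was 5.68 and 5.56 CPM in untreated cells, 12.4 and 18.7 CPM in Tm, 5.25 and 7.06 CPM in Tm + ISRIB, and 7.42 and 6.32 CPM in ISRIB. The Tm replicates were further apart than those of any other treatment, and both still lay above all 6 other libraries. In raw counts these levels rest on 46 and 63 footprints in untreated cells and on 54 and 58 in Tm, whose libraries were the shallowest. There were 31 and 46 in Tm + ISRIB and 33 and 37 in ISRIB. The level rose 2.70-fold in Tm (log2 fold change 1.43, SE 0.23, adjusted p = 1.1e-04, edgeR) and was 2.45-fold lower in Tm + ISRIB than in Tm (95% interval 1.72 to 3.47, adjusted p = 7.0e-04, edgeR). Leaving out Tm replicate b took the rise to 1.14 and leaving out Tm replicate a took it to 1.73 on the log2 scale.

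**Figure D2:**
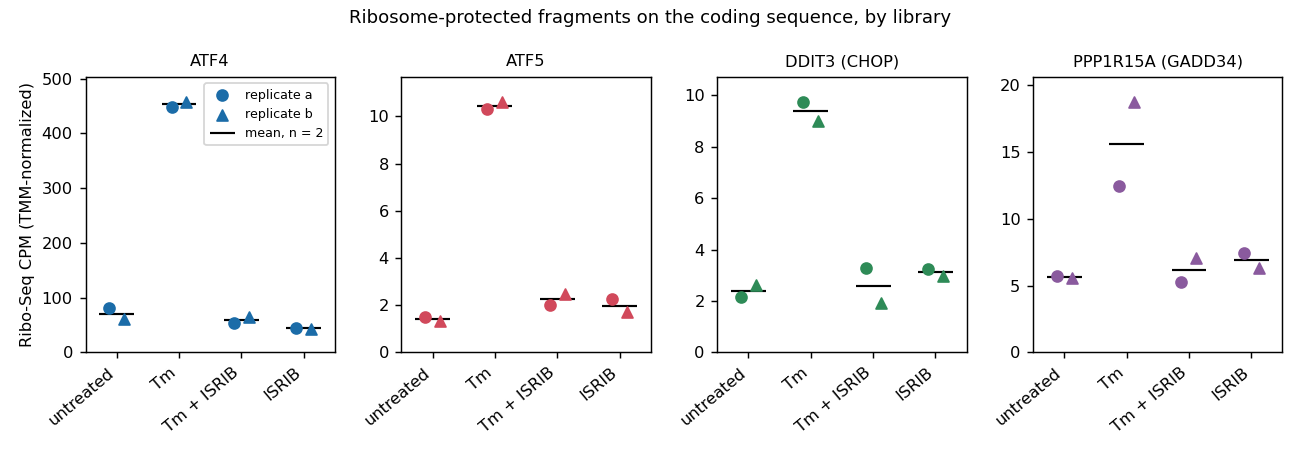
The plot of RPF levels by library shows TMM-normalized Ribo-Seq CPM on the y axis, on a linear scale that starts at 0 and differs between genes, for the 4 treatments. Circles are replicate a, triangles replicate b and bars the mean of the 2. For each gene both Tm libraries are above all others, at 449 and 457 CPM for ATF4 and at 12.4 and 18.7 CPM for PPP1R15A.

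Set side by side, 4 of 4 members rose in RPF in Tm and 4 of 4 fell when ISRIB was added to Tm. Over all transcripts 6.31% were called higher in Tm and 8.25% lower in Tm + ISRIB than in Tm (6.11% and 8.17% in the fit of Ribo-Seq alone that holds DDIT3). The members were on the study's list of transcripts that rose in Tm, which was drawn from these same libraries, so their direction in Tm is not independent evidence. Ranked by fold among the 12242 transcripts, ATF5 was 2nd, ATF4 3rd, DDIT3 9th and PPP1R15A 19th from the top in Tm. Both comparisons share the Tm libraries, so the rise and the fall are not separate measurements.

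The effect of Tm was then compared without and with ISRIB, as the change from untreated to Tm minus the change from ISRIB to Tm + ISRIB, which uses all 4 treatments. The difference was called higher without ISRIB for 4 of 4 members, against 3.1% of all transcripts (2.97% in the fit of Ribo-Seq alone). It contains the change in Tm by which the members were listed, so this count is not independent evidence either. On the log2 scale the difference was 2.25 for ATF4 (SE 0.16, adjusted p = 2.2e-10, edgeR) and 2.68 for ATF5 (SE 0.56, adjusted p = 0.0054, edgeR). It was 2.22 for DDIT3 (SE 0.49, adjusted p = 0.0086, edgeR) and 1.57 for PPP1R15A (SE 0.36, adjusted p = 0.011, edgeR). Without Tm replicate b the difference for PPP1R15A was 1.28 and was no longer called. With ISRIB present, Tm moved no member past the threshold in edgeR (1 had an unadjusted p under 0.05). Of all transcripts 1.36% were called in either direction in both fits, so a count of none is near that share and not particular to the members. DESeq2 called ATF4 (adjusted p = 0.088) with its own filter and none without it (adjusted p = 0.26 for ATF4), and 7 of 16 alternatives called ATF4, with adjusted p from 0.0078 to 0.64. The estimates for Tm + ISRIB against ISRIB were 0.44 for ATF4 (95% interval 0.18 to 0.70), 0.21 for ATF5 (95% interval -0.66 to 1.08), -0.27 for DDIT3 (-1.04 to 0.51) and -0.14 for PPP1R15A (-0.69 to 0.42), so changes up to about 2.12-fold in ATF5 lie within the interval.

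Tm + ISRIB was also set against untreated cells, to see how near the levels came to those at rest. No member was called in RPF by edgeR (1 at an unadjusted p under 0.05, and 0 by DESeq2). Of all transcripts 2.66% were called in either direction (2.67% in the fit of Ribo-Seq alone). A count of none is near so small a share and is not particular to the members. ATF4 had 59.2 ± 8.74 CPM (SD, n = 2) against 70.7 ± 14.1 CPM in untreated cells. DDIT3 had 2.59 ± 0.95 CPM against 2.39 ± 0.35 CPM, and its interval on the log2 scale, -0.64 to 0.81, holds no difference as well as sizeable ones.

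Together, the coding sequences of the 4 genes held 87.5 and 66.5 footprints in 1000000 of the library in untreated cells, 481 and 490 in Tm, 61.4 and 73.7 in Tm + ISRIB, and 54.5 and 50.7 in ISRIB. The exact binomial 95% intervals, which cover counting error only, were 81.3 to 94.1 and 62.0 to 71.3 for the untreated replicates. These intervals do not meet, so the untreated replicates differed by more than counting error. ATF4 made up 92.2% and 93.2% of the sum in Tm and 77.4% and 79.4% in ISRIB, so the combined share is mostly that of ATF4.

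**Figure D3:**
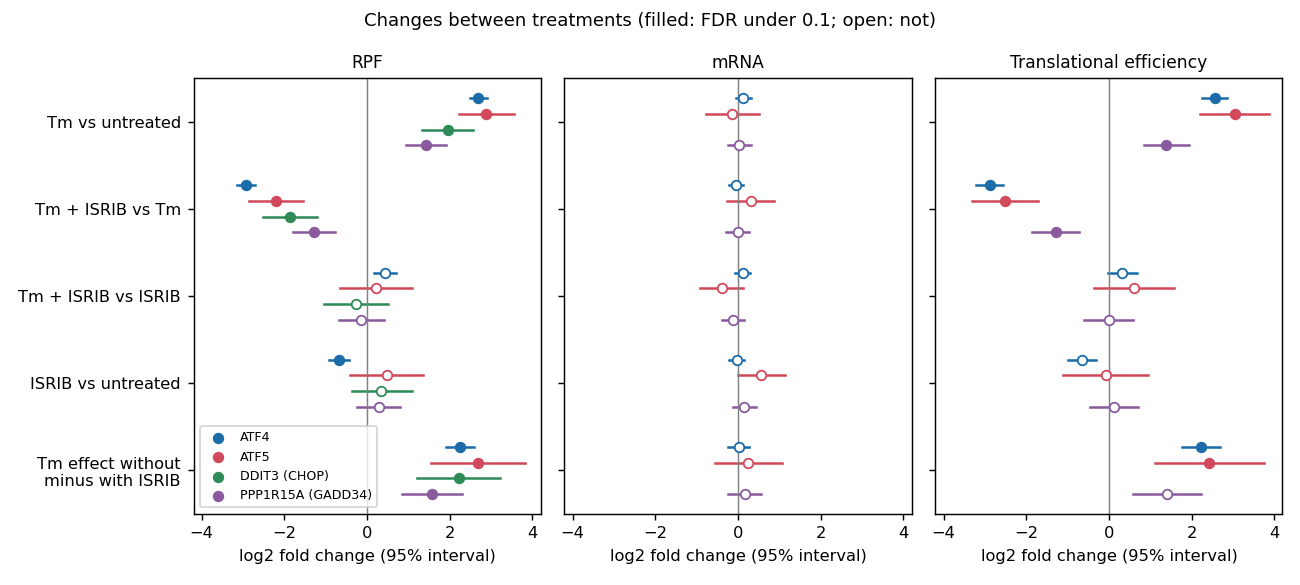
The plot of changes gives the log2 fold change on the x axis with its 95% interval for RPF, mRNA and translational efficiency, in 5 comparisons on the y axis. Filled points have an FDR under 0.1. In the RPF panel the points for Tm against untreated lie between 1.43 and 2.89 and those for Tm + ISRIB against Tm between -2.93 and -1.29, while every point in the mRNA panel is open and between -0.39 and 0.56.

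mRNA levels were compared next, to see whether the footprints followed the message. ATF4 mRNA was 742 and 813 CPM in untreated cells, 880 and 823 CPM in Tm, 843 and 809 CPM in Tm + ISRIB, and 807 and 718 CPM in ISRIB. The Tm pair lay just above the untreated pair and the Tm + ISRIB pair just above the ISRIB pair, with all 8 libraries from 718 to 880 CPM, and the log2 fold change in Tm was 0.13 (95% interval -0.05 to 0.31, adjusted p = 0.34, edgeR). In Tm + ISRIB against Tm it was -0.04 (95% interval -0.22 to 0.13, adjusted p = 1, edgeR).

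PPP1R15A mRNA was 17.6 and 22.2 CPM in untreated cells, 19.0 and 21.5 CPM in Tm, 19.5 and 21.0 CPM in Tm + ISRIB, and 21.9 and 22.3 CPM in ISRIB. The ranges of untreated, Tm and Tm + ISRIB lay within each other, and the change in Tm was 0.03 on the log2 scale (95% interval -0.25 to 0.32, adjusted p = 0.9, edgeR). ATF5 mRNA was scarce, at 22 to 104 raw counts per library. It was 3.65 and 2.91 CPM in untreated cells, 2.58 and 3.32 CPM in Tm, 3.02 and 4.23 CPM in Tm + ISRIB, and 4.22 and 5.65 CPM in ISRIB. Both ISRIB values of ATF5 were above the untreated and Tm ones, and the other treatments overlapped (ISRIB against untreated log2 fold change 0.56, 95% interval -0.01 to 1.14, adjusted p = 0.36, edgeR).

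None of the 3 members with mRNA counts was called in mRNA in any of the 6 comparisons by edgeR. The count was also 0 by DESeq2, and none had an unadjusted p under 0.05 by either tool. Over all transcripts, 11.0% were called in mRNA in Tm against untreated and 0.0% in Tm + ISRIB against Tm, in Tm + ISRIB against ISRIB and in the difference of Tm effects. The share was 14.0% in Tm + ISRIB against untreated and 1.14% in ISRIB against untreated. A count of 0 among 3 members is near all of these shares and is not particular to the members. These shares turned on single replicates. The share in Tm against untreated went to 0.0% without untreated replicate b, Tm replicate a or Tm replicate b, to 1.92% without untreated replicate a, to 6.52% and 6.51% without Tm + ISRIB replicate a or b, and to 26.2% and 26.1% without ISRIB replicate a or b, and it was 29.1% with only the treatments compared. For Tm + ISRIB against untreated it went from 0.0% without untreated replicate b to 29.7% without ISRIB replicate a. With total counts as the only scaling, the calls in Tm split into 488 higher and 662 lower, against 736 and 498. ATF4 mRNA in Tm + ISRIB against ISRIB was called, at 0.24 on the log2 scale (adjusted p = 0.041, edgeR), when ISRIB replicate a was left out, in a range of 0.041 to 0.98 over 16 alternatives. In that fit 28.7% of all transcripts were called in the comparison, so the call is not particular to ATF4. The 95% intervals leave room for an ATF5 mRNA fold of 0.584 to 1.41 in Tm, while the ATF4 interval runs from 0.968 to 1.24.

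**Figure D4:**
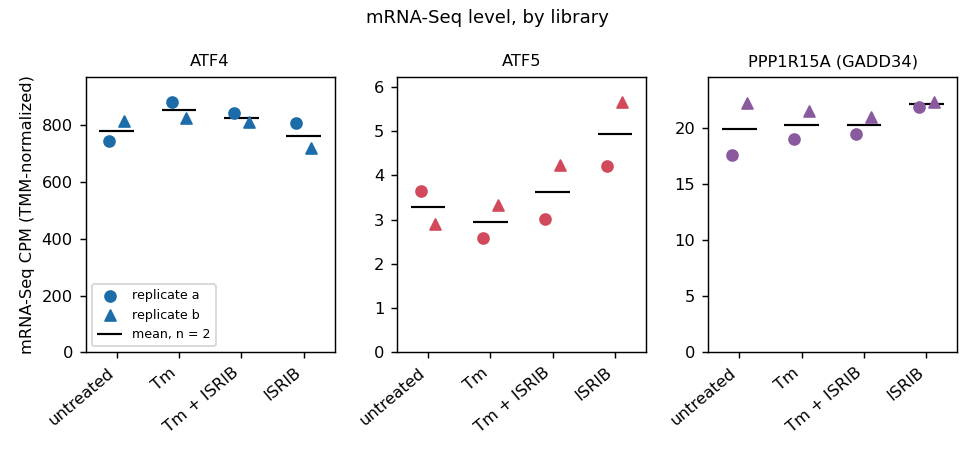
The plot of mRNA levels by library shows TMM-normalized mRNA-Seq CPM on the y axis, on a linear scale from 0 that differs between genes, for the 4 treatments. Circles and triangles are replicates a and b and bars their mean. ATF4 stays between 718 and 880 CPM in all 8 libraries and PPP1R15A between 17.6 and 22.3 CPM.

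Translational efficiency, the RPF level per length divided by the mRNA level per length of the same lysate, separated the 3 genes. For ATF4 it was 0.109 and 0.0747 in untreated cells, 0.511 and 0.556 in Tm, 0.0629 and 0.0809 in Tm + ISRIB, and 0.0554 and 0.0597 in ISRIB, where the median transcript had 1.02. Only the Tm lysates of ATF4 came near the body of the distribution. They were at percentiles 18.6 and 21.5 of the transcripts tested, and the other 6 lysates were all at or below percentile 0.958.

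ATF4 thus had an abundant message with few ribosomes on it. Its mRNA, at 781 ± 50.7 RPKM (SD, n = 2) in untreated cells, was at percentile 98.5 of the transcripts tested, and its RPF density, at 71.0 ± 14.1 RPKM, was at percentile 78.2. In Tm its RPF density of 455 ± 5.56 RPKM reached percentile 96.3, with the mRNA at percentile 98.4. In ISRIB the RPF density was 44.0 ± 1.32 RPKM, at percentile 68.6.

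ATF5 had an efficiency of 0.406 and 0.455 in untreated cells, 4.0 and 3.2 in Tm, 0.672 and 0.58 in Tm + ISRIB, and 0.532 and 0.302 in ISRIB. It went from percentiles 12.6 and 15.5 at rest to 93.3 and 91.0 in Tm, so that it passed from below the median transcript to well above it. PPP1R15A had 0.323 and 0.25 in untreated cells, 0.652 and 0.869 in Tm, 0.269 and 0.337 in Tm + ISRIB, and 0.338 and 0.284 in ISRIB. Its Tm lysates were the highest of the 8 and stayed below the median transcript, at percentiles 27.9 and 41.7. How the reads of shared exons were divided among isoforms in each assay is not given in the sources used here, so efficiencies of different genes are less certain than changes within a gene.

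**Figure D5:**
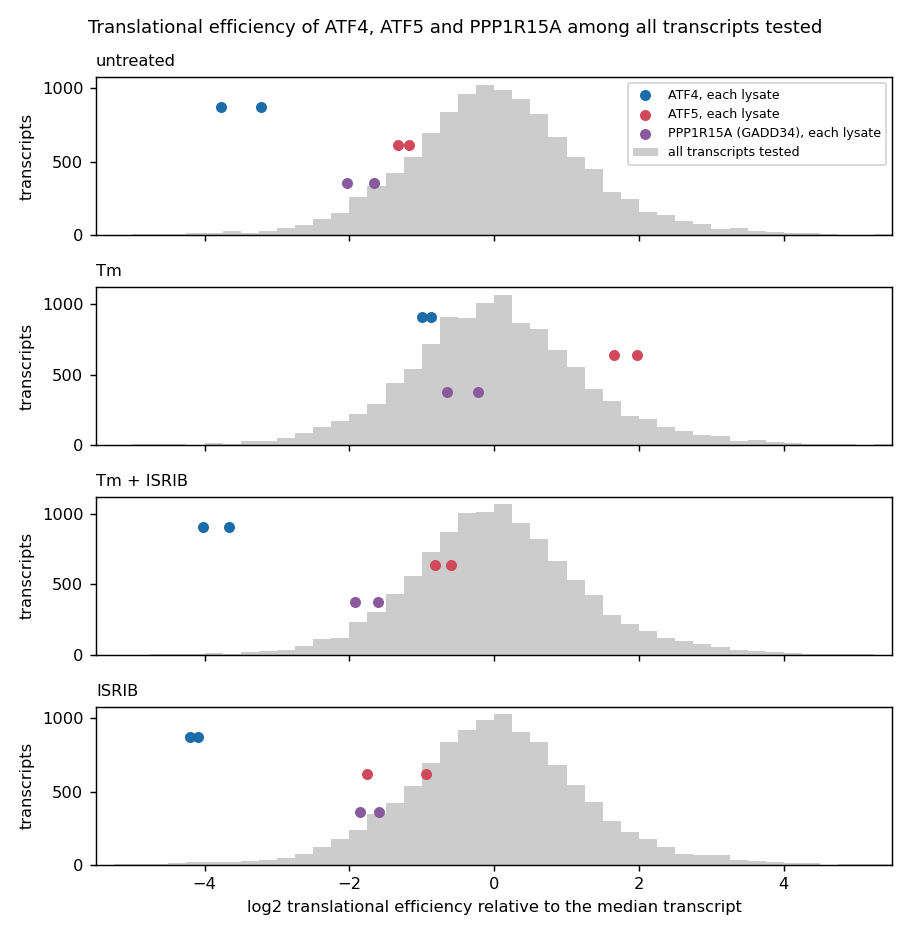
The plot of translational efficiency shows, for each treatment, the number of transcripts (grey bars) by log2 efficiency relative to the median transcript, on the x axis, and the value of each lysate as a dot, whose height has no meaning. ATF4 lies far to the left except in Tm, where its 2 lysates have 0.5 and 0.546 times the median efficiency, and ATF5 crosses to the right of the median in Tm, at 3.92 and 3.14 times.

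In the model over all 16 libraries, efficiency rose in Tm for 3 of 3 members, against 7.14% of all transcripts called higher. The members were listed by their rise in Tm in these libraries. This count, and the fall against the same Tm libraries, are therefore not independent evidence. The log2 changes were 2.56 for ATF4 (SE 0.15, adjusted p = 1.3e-09, edgeR), 3.04 for ATF5 (SE 0.40, adjusted p = 1.4e-04, edgeR) and 1.39 for PPP1R15A (SE 0.26, adjusted p = 0.0026, edgeR). When ISRIB was added to Tm, efficiency fell for 3 of 3, against 2.35% of all transcripts. It was 7.41-fold lower for ATF4 (95% interval 5.95 to 9.23), 5.72-fold lower for ATF5 (3.28 to 9.97) and 2.43-fold lower for PPP1R15A (1.65 to 3.6). The last call was lost without Tm replicate b (log2 fold change -1.09) and without Tm + ISRIB replicate a (-1.14), with adjusted p from 0.0055 to 0.2 over 16 alternatives.

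The effect of Tm on efficiency was larger without ISRIB than with it for 2 of 3 members, against 0.439% of all transcripts. This difference, too, contains the change in Tm by which the members were listed. The difference was 2.23 on the log2 scale for ATF4 (SE 0.22, adjusted p = 2.6e-05, edgeR) and 2.43 for ATF5 (SE 0.63, adjusted p = 0.082, edgeR). It was 1.41 for PPP1R15A (95% interval 0.59 to 2.22, adjusted p = 0.11, edgeR). With the shared lysate as a block PPP1R15A passed, at 1.45 (adjusted p = 0.095, edgeR, in a range of 0.073 to 0.37 over 15 alternatives). The ATF5 call was lost when any 1 library pair other than ISRIB replicate b was left out, at 2.07 to 2.62 on the log2 scale. Each of these fits leaves a lone replicate in a treatment that the difference uses, so a lost call does not by itself mark a smaller difference. The call was also lost with DESeq2 without its own filter (2.43, adjusted p = 0.22, DESeq2).

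ISRIB without Tm left the efficiency of ATF4 at -0.66 relative to untreated cells on the log2 scale (95% interval -0.99 to -0.32, adjusted p = 0.16, edgeR), where 0.143% of transcripts were called lower. The change passed with DESeq2 (adjusted p = 0.028) and with no filter on low counts (adjusted p = 0.072, edgeR), in a range of 0.028 to 0.6 over 17 alternatives. ATF5 was at -0.08 (95% interval -1.12 to 0.95) and PPP1R15A at 0.12 (-0.46 to 0.71), neither called. In Tm + ISRIB no member was called in efficiency against untreated cells by edgeR or DESeq2 (1 at an unadjusted p under 0.05 by each). None was called against ISRIB (0 at an unadjusted p under 0.05 by each). Of all transcripts 9.03% and 1.12% were called in either direction by edgeR, and 12.1% and 0.0% with only the treatments compared. Counts of none among so few members are near these shares and are not particular to them.

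The 4 members were read beside other genes of the pathway, as far as these could be named. Symbols were at hand for 1982 of 19938 joined transcripts, mostly genes on the first chromosomes and on the study's own lists, so most genes of the lists below were not analysed. Of 11 other uORF-bearing targets of the response, 10 were tested, 9 rose in RPF in Tm and 8 fell in Tm + ISRIB against Tm, with medians of 1.45 and -1.10 on the log2 scale, where all transcripts had -0.01 and 0.00 and 6.31% and 8.25% of them were called in these directions. The difference of Tm effects without and with ISRIB was called for 6 of the 10, against 3.1% of all transcripts. With ISRIB present, UCP2 still rose in Tm (0.97, SE 0.22, adjusted p = 0.023, edgeR), 1 of the 10, where 1.36% of all transcripts were called in either direction. This list was in part picked by the study from these libraries, so its direction is not independent evidence. The largest rises were those of SLC35A4, a solute carrier family protein (2.01, SE 0.33), the phosphatase PTP4A1 (1.86, SE 0.13), the mitochondrial carrier UCP2 (1.54, SE 0.17), PNRC2, a factor in mRNA decay (1.5, SE 0.17), and C7orf31 (1.47, SE 0.46). PNRC2 mRNA rose as well in Tm, by 0.58 (SE 0.12, adjusted p = 0.034, edgeR), and its efficiency by 0.93 (SE 0.21). The 1 tested gene of the list that did not rise was EPRS, a tRNA synthetase, at 0.08 (95% interval -0.06 to 0.22).

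PPP1R15B encodes CReP, the constitutive counterpart of GADD34. It had 50.6 and 51.2 CPM of RPFs in untreated cells, 89.3 and 75.7 CPM in Tm, 56.6 and 56.3 CPM in Tm + ISRIB, and 60.9 and 52.3 CPM in ISRIB. As for PPP1R15A, both Tm libraries lay above all others. Its rise in Tm was 0.70 on the log2 scale (SE 0.10, adjusted p = 2.4e-05, edgeR), with mRNA at 0.03 (SE 0.07, adjusted p = 0.83, edgeR). Among the 6 tested genes for eIF2 kinases, eIF2B subunits and phosphatase subunits, PPP1R15B was the only one called in RPF in Tm, a share near the 13.5% of all transcripts called in either direction. In Tm + ISRIB against Tm it fell by 0.56 and EIF2AK2, the kinase PKR, rose by 0.31 (adjusted p = 0.036, edgeR).

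Of 37 genes that ATF4 or CHOP are known to activate, 6 were tested. In Tm, the growth arrest gene GADD45A rose in RPF by 0.51 (SE 0.16, adjusted p = 0.038, edgeR) and MTHFD2, a mitochondrial folate enzyme, fell by 0.30 (SE 0.08, adjusted p = 0.024, edgeR). SESN2, a stress-induced regulator of mTORC1, was at 0.09 (95% interval -0.17 to 0.35), and the other 3 were not called, between -0.18 and 0.00. Of the 6, 1 was called higher and 1 lower in RPF, where 6.31% and 7.17% of all transcripts were called in these directions. The list's median RPF change was -0.06, where all transcripts had -0.01. In mRNA none of the 6 was called in Tm (median 0.12), where 11.0% of all transcripts were called in either direction. In efficiency 2 of the 6 were called lower in Tm, where 8.68% of all transcripts were. In Tm + ISRIB against Tm, MTHFD2 rose in RPF by 0.42 (SE 0.09). ATF3 was not analysed here.

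Among other bZIP factors, 5 of 20 were tested and only JUN was called, near the shares of all transcripts called in either direction, 13.5% in Tm and 17.8% in Tm + ISRIB against Tm. It fell in RPF by 0.34 in Tm (SE 0.10, adjusted p = 0.036, edgeR) and fell by 0.34 again in Tm + ISRIB against Tm (SE 0.11, adjusted p = 0.048, edgeR), while ATF2, CREB1, NFE2L2 and CEBPZ were between -0.22 and 0.10 in Tm without passing the test. Of the ATF6 and XBP1 branches 1 of 16 genes was tested, EDEM1, an endoplasmic reticulum degradation factor, at 0.15 in Tm (95% interval -0.31 to 0.61).

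The genes whose RPF pattern over the 8 Ribo-Seq libraries was most like that of ATF4 were SAT1, a polyamine acetyltransferase (Pearson's r 0.99), IFRD1, a developmental regulator (0.98), PTP4A1 (0.97), PNRC2 (0.96) and UCP2 (0.92). The comparison was limited to transcripts with at least 50 RPF counts on average and an SD of at least 0.5 on the log2 scale, which left 11 named candidates outside the members and 8 transcripts without a symbol. None of these 8 had an r as high as UCP2. The SD minimum keeps transcripts that vary over these libraries, as ATF4 did through Tm, so a high r is partly set by the filter. SAT1 ran from 89.4 and 75.2 CPM in untreated cells to 182 and 189 CPM in Tm and 72.8 to 92.9 CPM in the other 4 libraries. The 5 genes rose less than ATF4, by 1.18 to 1.86 on the log2 scale. All correlations are descriptions over 8 libraries of 4 treatments, and the named candidates include genes that the study listed from these libraries. Between the members themselves r was 0.88 to 0.95, lowest for DDIT3 with PPP1R15A and highest for ATF5 with PPP1R15A. The members were listed by their rise in Tm, so these values are not independent evidence.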

How the data were processed

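Ribo-Seq and mRNA-Seq were measured in 16 libraries of HEK293T cells, after 2 min of 100 µg/ml cycloheximide. The authors deposited raw read counts per UCSC transcript over the coding sequence, with the number of codons counted. The submitters' processing notes name hg19, CASAVA 1.8, Bowtie 1.0.0 and TopHat2 2.0.7 and 2.0.10. Assays were joined by identifier without version (19938 transcripts, 19044 with the same counted length). Transcripts with at least 10 counts by filterByExpr in both assays were kept (11170). edgeR 4.0.16 (R 4.3.3) with TMM and quasi-likelihood tests was fitted over all 4 treatments, within each assay, and over all 16 libraries for efficiency, as the interaction of treatment and assay. DDIT3 was tested in Ribo-Seq alone (12242). The scripts were tested on simulated data. With 2 libraries against 2, an exact permutation test cannot go below p = 0.33, and p-values come from the fits across all transcripts.

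Replicate letters and lysates were tried as blocks. Across transcripts, the departures of libraries with the same letter from the treatment mean correlated at -0.15 to 0.2 in Ribo-Seq and -0.3 to 0.62 in mRNA-Seq (6 pairs each), and those of the 2 libraries of a lysate at -0.09 to 0.06. The study's methods say that lysates were divided between the assays. Other alternatives were DESeq2 1.42.0, RLE scaling, total counts, no filter, the same counted length, only the treatments compared, and leaving out each replicate. When a replicate is left out, its 2 libraries go together and the lone replicate is assumed to vary like the other treatments.

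The 4 members and all gene lists were chosen with earlier results of these data known. Named genes are the members, list genes called in RPF in Tm against untreated or in Tm + ISRIB against Tm (at most 5 a list), ATF3, PPP1R15B and SESN2, and the 5 most like ATF4. Symbols come from the study's tables. The 5′ UTRs are those of GENCODE v29 (GRCh38) and are not coordinates of the deposited files. For the members a length-matched transcript was taken, principal forms first and then the shortest 5′ UTR. For all annotated genes the top-ranked principal transcript with the longest coding sequence was taken. Tables were made with pandas 2.3.3 in Python 3.11.15, intervals with scipy 1.17.1 and plots with matplotlib 3.10.9.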

Additional observations from a re-analysis of the deposited data

Results flagged for a closer look

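The effect of Tm differed between cells without and with ISRIB, by an interaction term in edgeR over all 4 treatments. This term contains the change in Tm by which the members were listed, so it is not independent evidence. The RPF log2 change in Tm was larger without ISRIB by 2.25 for ATF4, by 2.68 for ATF5, by 2.22 for DDIT3 and by 1.57 for PPP1R15A. In translational efficiency it was larger by 2.23 for ATF4 and by 2.43 for ATF5. In both replicates of each of these genes the Tm value was above both untreated values. With ISRIB present, 1.36% of all transcripts were called in RPF in either direction. At a count near that share, none of these genes passed the threshold in RPF with ISRIB by edgeR. ATF4 came nearest, at 0.44 (adjusted p = 0.11), and passed under 7 of 16 alternatives, with adjusted p from 0.0078 to 0.64.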

How the results depend on the processing

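All 4 members were called in RPF in Tm against untreated and in Tm + ISRIB against Tm under each alternative that gave all their p-values, and all 3 in efficiency in Tm. Beside 935 values of members under alternatives, DESeq2 gave no adjusted p for 33 others, all of ATF5, DDIT3 or PPP1R15A, under its own filter. A run without that filter was added after seeing the data. For Tm + ISRIB against ISRIB in RPF, 1 member (ATF4) was called with total counts alone, with no filter on low counts, with the replicate block and with only the treatments compared. With the replicate block the RPF value of ATF4 was 0.44 and the efficiency of PPP1R15A was 0.00, against -0.01 without it. The block added ATF4 here and PPP1R15A in the difference of Tm effects on efficiency (1.42), the lysate block added the latter, and neither changed another call. For efficiency in ISRIB against untreated, 1 member was called with no filter and with DESeq2 without its own filter. For the difference of Tm effects on efficiency, 1 was called with that DESeq2 run. With total counts alone, PPP1R15A turned to -0.01 in mRNA in Tm and in Tm + ISRIB against untreated, and to 0.04 in efficiency in Tm + ISRIB against ISRIB. With only the treatments compared its mRNA was at 0.00 in Tm + ISRIB against Tm.

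Without 1 replicate, the count of members called ranged from 0 to 1 in RPF for Tm + ISRIB against ISRIB, Tm + ISRIB against untreated and ISRIB against untreated, from 0 to 1 in mRNA for Tm + ISRIB against ISRIB, and from 1 to 2 in efficiency for the difference of Tm effects. No value whose sign turned had passed the test. In RPF, PPP1R15A ranged from -0.37 to 0.05 and DDIT3 from -0.68 to 0.08 for Tm + ISRIB against ISRIB, and from -0.10 to 0.33 and -0.33 to 0.43 against untreated. In mRNA in Tm, PPP1R15A ranged from -0.13 to 0.21 and ATF5 from -0.35 to 0.04. For Tm + ISRIB against Tm, PPP1R15A ranged from -0.08 to 0.09 and ATF4 from -0.09 to 0.01. Against untreated, PPP1R15A ranged from -0.13 to 0.21 and ATF5 from -0.12 to 0.36. For ISRIB against untreated, PPP1R15A ranged from -0.01 to 0.33 and ATF4 from -0.14 to 0.06. For the difference of Tm effects, PPP1R15A ranged from -0.00 to 0.33 and ATF4 from -0.10 to 0.10. In efficiency, PPP1R15A ranged from -0.19 to 0.13 against ISRIB, from -0.08 to 0.28 for Tm + ISRIB against untreated and from -0.07 to 0.30 for ISRIB against untreated, where ATF5 ranged from -0.46 to 0.33. The cause was not tested. The RPF counts of ATF5 and DDIT3 were low, and the standard errors of their RPF changes were 0.30 to 0.56. PPP1R15A had 31 to 63 RPF counts per library, with standard errors of 0.23 to 0.36. ATF4 mRNA, whose sign also turned in some comparisons, had 6226 to 19876 counts per library.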
